A study of Mus musculus with 18 samples.

Results

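The genes described are the mouse families of organic ion and bile salt uptake transporters in liver: the Slc22a family of organic anion, cation and zwitterion carriers, the Slco family of organic anion carriers, and the Slc10a family of sodium-dependent bile salt and steroid sulphate carriers. Members were chosen by name alone: each gene of the deposited table whose symbol begins with Slc22a, Slco or Slc10a and a number, with an estimate of status OK in all 6 groups. There were 49 members among 37303 listed genes: 26 Slc22a, 16 Slco and 7 Slc10a genes, and no gene of these names was lost to its status. Of the 49 members, 26 had more than 1 FPKM (sequenced fragments scaled to transcript length in kilobases and to library size) in at least 1 group, and 25 of these are described singly: the 26 are 13 Slc22a, 7 Slco and 6 Slc10a genes.

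RNA-Seq of poly-A RNA was made from 18 livers of C57BL/6J mice in 6 groups of 3. WT mice and mice with a whole-body homozygous deletion of Gcn2 (Gcn2-/-) or of Atf4 (Atf4-/-) received 8 daily intraperitoneal injections of PBS or of asparaginase (ASNase) at 3 IU per gram body weight, and livers were taken 7.5 h after an injection by the labels. GCN2 is the kinase that phosphorylates eIF2 when amino acids are scarce, ATF4 is a transcription factor whose translation then rises, and ASNase, a leukaemia drug, depletes circulating asparagine and glutamine. The mice were at least 8 weeks old, and at most 12 weeks by the protocol in the labels or 16 weeks by the age label. Sexes were mixed: each of WT PBS, Gcn2-/- PBS and Gcn2-/- ASNase is labelled with 1 male of 3 mice, and each of WT ASNase, Atf4-/- PBS and Atf4-/- ASNase with 2. Both deletions are in every cell of the animal, so liver and other organs cannot be told apart as the site of an effect, and Atf4-/- mice are lean before any treatment by the study's account.

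Hepatocytes take up bile salts, steroid and thyroid conjugates, bilirubin conjugates, carnitine, vitamins and many drugs from the blood through carriers of these families in the membrane that faces the sinusoid. Slc10a1 (NTCP) carries conjugated bile salts with sodium, and the Slco1 carriers take up bile acids and other organic anions without it. Export pumps in the opposite, canalicular membrane, such as the bile salt pump encoded by Abcb11, then pass the substrates into bile. Nuclear receptors for bile acids and xenobiotics, hepatocyte nuclear factors and growth hormone signaling are known to control many of these genes, and some of them differ between the sexes in mouse liver.

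The table holds 1 FPKM value per group, estimated by the authors with Cuffdiff from the 3 libraries together, with a lower and an upper bound. It holds no value of a single mouse, so values below carry their interval in place of an SD, and it allows neither a p-value nor a check across replicates to be computed here. Differences are given as log2(FPKM + 0.1), first group minus second, and the added 0.1 makes the change of low genes look smaller than it is. Eligible genes were those with status OK and a value above 0 in both groups and more than 3 FPKM in either. They were called if the log2 difference was beyond 1.5 in size and the intervals were separate, so a gene with more than 3 FPKM in only 1 of the groups could be called only as higher in that group. Over the 49 members, 22 were eligible in at least 1 of 7 comparisons and 9 were called in at least 1. The share of all genes called in at least 1 was not computed, so the 9 are not read as particular to the carriers. The targeted genes do not check the group labels at this level. Eif2ak4, which encodes GCN2, had 3.04 (0.268 to 5.82) and 2.39 FPKM (0.75 to 4.04) for WT under PBS and ASNase, 2.31 (1.05 to 3.57) and 2.96 (1.07 to 4.85) for Gcn2-/-, and 2.19 (0.925 to 3.45) and 3.14 (0.5 to 5.78) for Atf4-/- mice, with all intervals overlapping. Atf4 had 50.4 (29.7 to 71.1) and 63.1 (36.4 to 89.8) for WT, 60 (35.1 to 85.0) and 68.1 (39.4 to 96.8) for Gcn2-/-, and 32.3 (19.1 to 45.5) and 29.3 (17.3 to 41.2) for Atf4-/- mice, the lowest values, with intervals that overlap those of WT. A value over the whole gene cannot show the loss of part of a transcript, and which part is deleted was not examined, so the groups are named here as they are labelled. Fewer cells of a type and less RNA per cell cannot be told apart in such bulk samples.

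Upstream sequences are shown for 6 genes on which the results below turn: the abundant bile salt and organic anion carriers that were lowest in Atf4-/- ASNase livers, the single called gene that was higher there, and a pair of neighbours with almost the same upstream sequence. They are the 250 bases before the RefSeq transcription start on GRCm38.p6, read 5′ to 3′ on the strand of the gene, and an entry was found for 20 of the 26 members. Capitals mark the letters AGGTCA (one arm of the site of many nuclear receptors), TTCNNNGAA (the core bound by STAT factors) and TGATGNAAT (the core of the C/EBP-ATF response element), on either strand.
Slco1b2, chr6:141629268-141629517, plus strand: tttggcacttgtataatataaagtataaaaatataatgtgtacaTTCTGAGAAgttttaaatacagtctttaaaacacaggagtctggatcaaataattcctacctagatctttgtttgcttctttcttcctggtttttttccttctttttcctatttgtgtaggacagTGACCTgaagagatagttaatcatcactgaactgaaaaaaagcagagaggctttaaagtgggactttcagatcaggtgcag
Slco1a1, chr6:141946963-141947212, minus strand: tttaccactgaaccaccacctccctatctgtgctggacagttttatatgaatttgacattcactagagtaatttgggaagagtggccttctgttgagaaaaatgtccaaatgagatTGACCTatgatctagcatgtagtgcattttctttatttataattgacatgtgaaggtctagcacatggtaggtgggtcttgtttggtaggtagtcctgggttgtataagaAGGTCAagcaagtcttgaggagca
Slc10a1, chr12:80968706-80968955, minus strand: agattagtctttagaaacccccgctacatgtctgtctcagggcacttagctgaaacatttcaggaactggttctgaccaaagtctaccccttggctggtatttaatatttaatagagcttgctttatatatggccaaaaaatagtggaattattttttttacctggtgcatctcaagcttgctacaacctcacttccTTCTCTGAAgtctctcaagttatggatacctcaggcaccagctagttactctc
Slc10a6, chr5:103629404-103629653, minus strand: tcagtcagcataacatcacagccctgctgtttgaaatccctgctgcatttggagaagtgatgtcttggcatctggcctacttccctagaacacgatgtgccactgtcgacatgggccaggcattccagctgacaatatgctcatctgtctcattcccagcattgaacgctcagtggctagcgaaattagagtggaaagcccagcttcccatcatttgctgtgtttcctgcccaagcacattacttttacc

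The window of Slco1b2 held AGGTCA on the other strand at positions -81 to -76 and TTCNNNGAA at -206 to -198, counted back from the start. That of Slco1a1 held AGGTCA at -24 to -19 and, on the other strand, at -134 to -129, and that of Slc10a1 held TTCNNNGAA at -53 to -45. In the Slc10a6 window none of these letters were found. AGGTCA was present in 3 of the 20 member windows, beside 14.0% of 32851 such windows of all genes, and TTCNNNGAA in 3, beside 7.02%. TGATGNAAT was in 0 of the 20 windows and in 0.816% of all. The direct and inverted repeats of AGGTCA spaced by 1 base, which contain the shorter letters, were in 0 of the 20 and in 0.0335% and 0.00609% of all.

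The second set shows the neighbours Slc22a28 and Slc22a30, with capitals at the bases that differ between them when the windows are laid over each other without gaps. Of the 244 bases compared 238 were identical, or 97.5%.
Slc22a28, chr19:8131983-8132232, minus strand: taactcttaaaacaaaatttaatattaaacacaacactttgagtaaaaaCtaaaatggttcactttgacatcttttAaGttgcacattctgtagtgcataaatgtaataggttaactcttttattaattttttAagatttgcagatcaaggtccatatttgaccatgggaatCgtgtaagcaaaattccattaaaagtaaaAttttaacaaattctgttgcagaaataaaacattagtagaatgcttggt
Slc22a30, chr19:8405106-8405355, minus strand: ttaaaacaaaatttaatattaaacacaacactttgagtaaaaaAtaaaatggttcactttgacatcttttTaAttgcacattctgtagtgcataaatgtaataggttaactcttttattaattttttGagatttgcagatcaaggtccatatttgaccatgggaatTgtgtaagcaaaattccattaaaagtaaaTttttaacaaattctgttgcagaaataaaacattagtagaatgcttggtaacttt

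In PBS-injected WT livers the most abundant members were the bile salt carriers Slc10a1 and Slco1b2, and Slco1a1 was among the next in order. Slc10a1 had 447 FPKM (206 to 688), Slco1b2 425 (18.4 to 831) and Slco1a1 103 (43.3 to 162). From rank 1 to 26, the intervals of every pair of neighbours in the order overlapped, so only members well apart in the order were separated by their intervals. Slc22a18, Slc22a30, Slco2b1 and Slco1a4 followed between 60.5 and 50.5 FPKM, Slc22a26, Slco2a1, Slc22a23, Slc10a5 and Slc22a27 between 36.5 and 12.8, and the remaining 13 of the 26 lay between 7.45 (Slc22a5) and 0.084 FPKM (Slc10a6).

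The other 23 members were at or under 1 FPKM in every group. Among them 6 table entries were listed at 0 in all groups, Slc22a16, Slc22a19, Slc22a20, Slco6d1 and 2 entries named Slco6b1. Another 11 never reached 0.1 FPKM, among them Slc22a6, Slc22a8 and Slc22a12, anion and urate carriers of the kidney, the kidney cation carrier Slc22a2, the brain carrier Slco1c1 and Slco1a5. The last 6 peaked at or above 0.1, with Slc22a15 highest at 0.911 FPKM, just under the limit for single description. Just above that limit was Slc22a21, with at most 1.14 FPKM. Genes of kidney tubules, a list of 7 markers, summed to between 0.025 and 1.24 FPKM per group.

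The 49 members together had a lower summed FPKM after ASNase in both knockouts and nearly the same sum in WT livers. The sum was 1519 FPKM for WT PBS and 1476 for WT ASNase mice, 1471 and 740 for Gcn2-/- mice, and 1558 and 404 for Atf4-/- mice. After ASNase it was therefore 97.2% of the PBS value in WT, 50.4% in Gcn2-/- and 25.9% in Atf4-/- livers. The 3 PBS groups and WT ASNase lay close together, Gcn2-/- ASNase lay below them, and Atf4-/- ASNase was lowest. As a share of the summed FPKM of all genes with an estimate, the members made up 0.211% and 0.228% in WT, 0.179% and 0.106% in Gcn2-/-, and 0.234% and 0.0502% in Atf4-/- livers. In Atf4-/- livers the Slco genes kept 18.8% of their summed PBS value, the Slc22a genes 30.2% and the Slc10a genes 34.5%. In Gcn2-/- livers these shares were 44.7%, 54.4% and 54.9%, and in WT livers 107%, 77.9% and 99.9%. Slc10a1 and Slco1b2 had the largest values in every group, so the sums rest to a large part on them. Slco1b2 made up 502 of the 743 FPKM of Slco genes in Atf4-/- PBS livers and 471 of 638 in Gcn2-/- PBS livers. Its change after ASNase was called in neither knockout, and that of Slc10a1 was not called in Gcn2-/- livers.

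**Figure D1:**
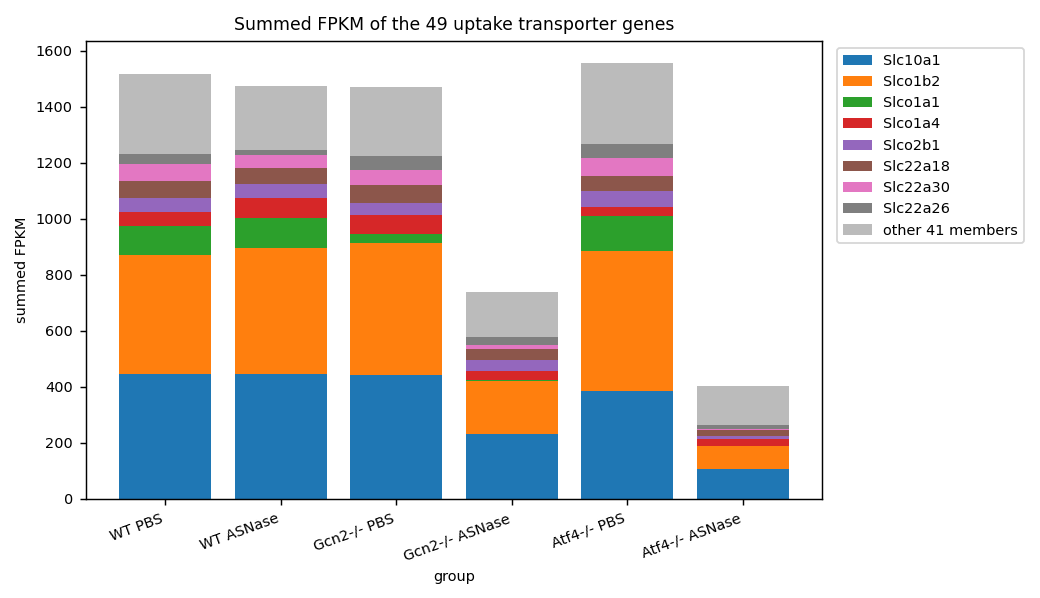
Summed FPKM (vertical axis, linear from 0) of the 49 uptake transporter genes in each of the 6 groups, stacked by gene for the 8 genes named and as 1 segment for the other 41. The 3 PBS bars and the WT ASNase bar stand between 1471 and 1558 FPKM, the Gcn2-/- ASNase bar at 740 and the Atf4-/- ASNase bar at 404. No interval is drawn, since the bounds of single genes do not add to bounds of a sum.

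Gene by gene, 17 of the 26 members had their lowest FPKM in Atf4-/- ASNase livers, and for 12 of these Gcn2-/- ASNase was second lowest. The share of all genes with such an order was not computed. After ASNase the WT livers had a median log2 difference of -0.06, the Gcn2-/- livers of -0.73 and the Atf4-/- livers of -0.98, beside 0.00, 0.03 and 0.05 over the 12758 genes that met the same limit of 1 FPKM and had status OK in all groups. After ASNase 14, 19 and 21 of the 26 members had a lower value in the 3 strains, without regard to intervals, where 48.3%, 45.9% and 46.6% of those 12758 genes did. In WT livers 0 of the 19 eligible members were called after ASNase, where 0.881% of eligible genes were. In Gcn2-/- livers 2 of 18 eligible members were called, both lower, beside 3.69% of all eligible genes and 2.13% called lower. With a limit of 1 FPKM in place of 3, 4 of 25 were called there, beside 3.41%, and with no limit 4 of 31, beside 2.33%, the added genes being Slc10a6 and Slc22a28. In Atf4-/- livers 8 of 20 were called, 7 lower and 1 higher, beside 7.37% of all eligible genes, 4.63% lower and 2.74% higher. Of those 20, 14 had more than 3 FPKM in both groups, and 4 of these were called, all lower. Another 4 met the limit through PBS only (Slco1a1, Slc22a7, Slc22a28 and Slc22a27) and could be called only as lower, and the first 3 were. Slc10a3 and Slc10a6 met it through ASNase only and could be called only as higher, and Slc10a6 was. Of the 18 eligible in Gcn2-/- livers 15 met it in both groups, among them the called Slc22a30, while Slco1a1, the other called gene, met it through PBS only. The shares of all genes called were computed for genes over 3 FPKM in either group. They were not computed for genes over it in both groups, so the counts among these 14 and 15 members have no share beside them. The 3 comparisons share no group with each other.

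Under PBS no member was past the rule in either knockout against WT. In Gcn2-/- against WT livers 0 of 19 eligible members were called, and in Atf4-/- against WT livers 0 of 19. Of all eligible genes 1.04% and 1.12% were called. Both comparisons use the WT PBS group. The median log2 differences of the 26 members were -0.05 and 0.13. Under ASNase, 4 of 18 eligible members were called between Gcn2-/- and WT livers and 6 of 19 between Atf4-/- and WT livers, beside 4.41% and 8.25% of all eligible genes. In Gcn2-/- livers 3 were lower and 1 higher, beside 2.59% and 1.83%, and in Atf4-/- livers 5 were lower and 1 higher, beside 5.66% and 2.59%. Of the calls as lower, those of Slco1a1 and Slc22a7 in each knockout rest on genes over 3 FPKM in WT livers only, and the call of Slc10a6 as higher on a gene over it in Atf4-/- livers only. These last comparisons share the WT ASNase group with each other and their knockout group with the comparisons after ASNase, so they restate part of the same values.

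**Figure D2:**
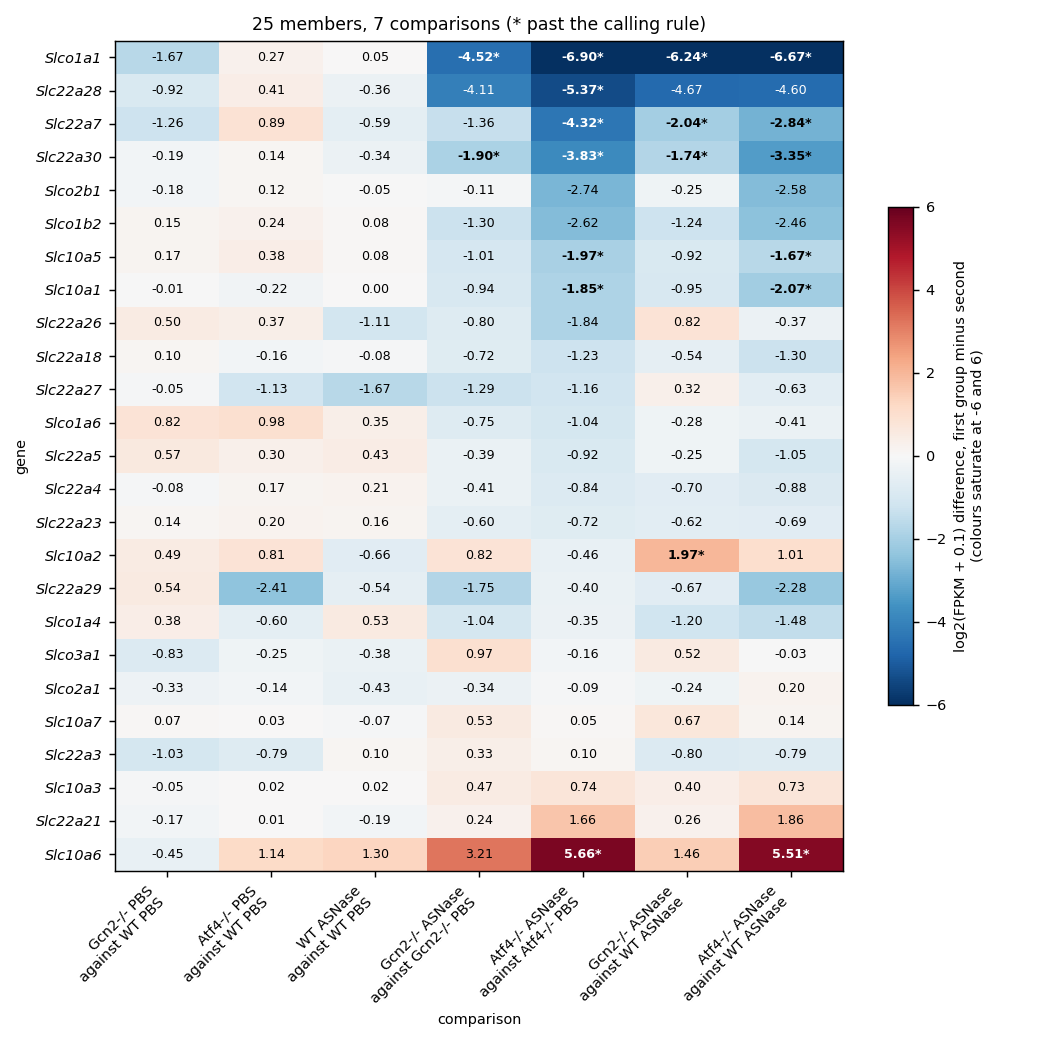
Difference in log2(FPKM + 0.1) of 25 members (rows, ordered by the change in Atf4-/- livers) in 7 comparisons (columns), first group minus second, with blue for lower, red for higher and an asterisk where the calling rule was met. The 2 basal columns and the WT ASNase column hold no asterisk, and the Atf4-/- ASNase against PBS column holds 7, from -6.90 for Slco1a1 to 5.66 for Slc10a6.

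Among the carriers of bile salts, Slc10a1 (ENSMUSG00000021135; GRCm38 chromosome 12 from 80953183 to 80968705, minus strand) fell after ASNase in Atf4-/- livers. Its FPKM was 447 (206 to 688) for WT PBS and 447 (214 to 681) for WT ASNase mice, 444 (210 to 677) and 231 (112 to 349) for Gcn2-/- mice, and 384 (183 to 585) and 106 (59.0 to 154) for Atf4-/- mice. The 4 groups without both a deletion and ASNase were close together, and the interval of Atf4-/- ASNase lay below the intervals of these 4 and overlapped that of Gcn2-/- ASNase. The log2 change was -1.85 in Atf4-/- livers, with separate intervals, -0.94 in Gcn2-/- livers, with intervals that overlapped, and 0.00 in WT livers. Against WT ASNase livers the difference was -2.07 in Atf4-/- livers, also called, and -0.95 in Gcn2-/- livers, not called.

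Slco1b2 (ENSMUSG00000030236; chromosome 6 from 141629518 to 141686646, plus strand), the hepatocyte carrier that also takes up bilirubin conjugates and many drugs, had 425 (18.4 to 831) and 450 FPKM (40.4 to 859) for WT under PBS and ASNase. It had 471 (0 to 946) and 191 (18.3 to 364) for Gcn2-/- mice, and 502 (29.7 to 975) and 81.4 (12.9 to 150) for Atf4-/- mice. As for Slc10a1, the knockout ASNase values were lowest, but the intervals of Slco1b2 were much wider relative to the values and all 6 of them overlapped. The log2 change was -2.62 in Atf4-/- and -1.30 in Gcn2-/- livers and neither was called.

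The remaining Slc10a genes did not all go one way. Slc10a5 (chromosome 3 from 10331734 to 10335656), an orphan carrier of liver and kidney, had 13.6 and 14.4 FPKM for WT under PBS and ASNase, 15.3 and 7.53 for Gcn2-/- mice, and 17.7 (10.4 to 25.0) and 4.45 (2.23 to 6.68) for Atf4-/- mice. It fell after ASNase in Atf4-/- livers by 1.97 on the log2 scale, and the change of -1.01 in Gcn2-/- livers was not called. Against WT ASNase livers it was lower in Atf4-/- livers by rule (-1.67), a call lost with a pseudocount of 1, under which 7.43% of genes were called. Of its 100-base windows, 4.42% occur in transcripts annotated to Gm38303, with which it shares exons, so part of its reads could be assigned to either.

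Slc10a6 (ENSMUSG00000029321; chromosome 5 from 103605711 to 103629403), which carries steroid sulphates, was the only member called as higher after ASNase in any strain. Its FPKM was 0.084 (0 to 0.192) for WT PBS and 0.353 (0.0547 to 0.651) for WT ASNase mice, 0.0346 (0 to 0.101) and 1.14 (0.326 to 1.96) for Gcn2-/- mice, and 0.306 (0.042 to 0.571) and 20.5 (5.90 to 35.1) for Atf4-/- mice. Each ASNase value was above the PBS value of the same strain, the Atf4-/- ASNase interval lay above all others, and the Gcn2-/- ASNase interval lay above both PBS intervals of WT and Gcn2-/- livers. The log2 change was 5.66 in Atf4-/-, 3.21 in Gcn2-/- and 1.30 in WT livers. The Gcn2-/- intervals were separate but both values were under 3 FPKM, so the gene was not eligible there.

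Slc10a2 (chromosome 8 from 5083219 to 5105351), the sodium-dependent bile acid carrier of ileum and bile duct cells, had 4.95 (2.40 to 7.50) and 3.09 FPKM (1.32 to 4.86) for WT under PBS and ASNase. It had 6.97 (3.64 to 10.3) and 12.4 (6.89 to 17.9) for Gcn2-/- mice and 8.74 (4.67 to 12.8) and 6.33 (3.03 to 9.64) for Atf4-/- mice. Gcn2-/- ASNase was the highest group and WT ASNase the lowest, and the difference between these, 1.97 on the log2 scale, was called as higher in Gcn2-/- livers. No change after ASNase within a strain was called: -0.66 in WT, 0.82 in Gcn2-/- and -0.46 in Atf4-/- livers. A list of 6 bile duct cell markers summed to 27.6 FPKM in WT ASNase and 30.8 in Gcn2-/- ASNase livers, with Cftr under 0.1 FPKM in all groups. The 3 markers over 1 FPKM had a median log2 difference of 0.66 between these groups and of 0.78 after ASNase in Gcn2-/- livers. Only 1 of the 6 markers was eligible in each of these comparisons, so the others could not be called, and that 1 was not called. The part of the markers in the difference was not tested. The other orphan genes Slc10a3 and Slc10a7 stayed between 1.99 and 3.58 FPKM with overlapping intervals, and 7.36% of the 100-base windows of Slc10a3 also occur in its neighbour Ubl4a.

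**Figure D3:**
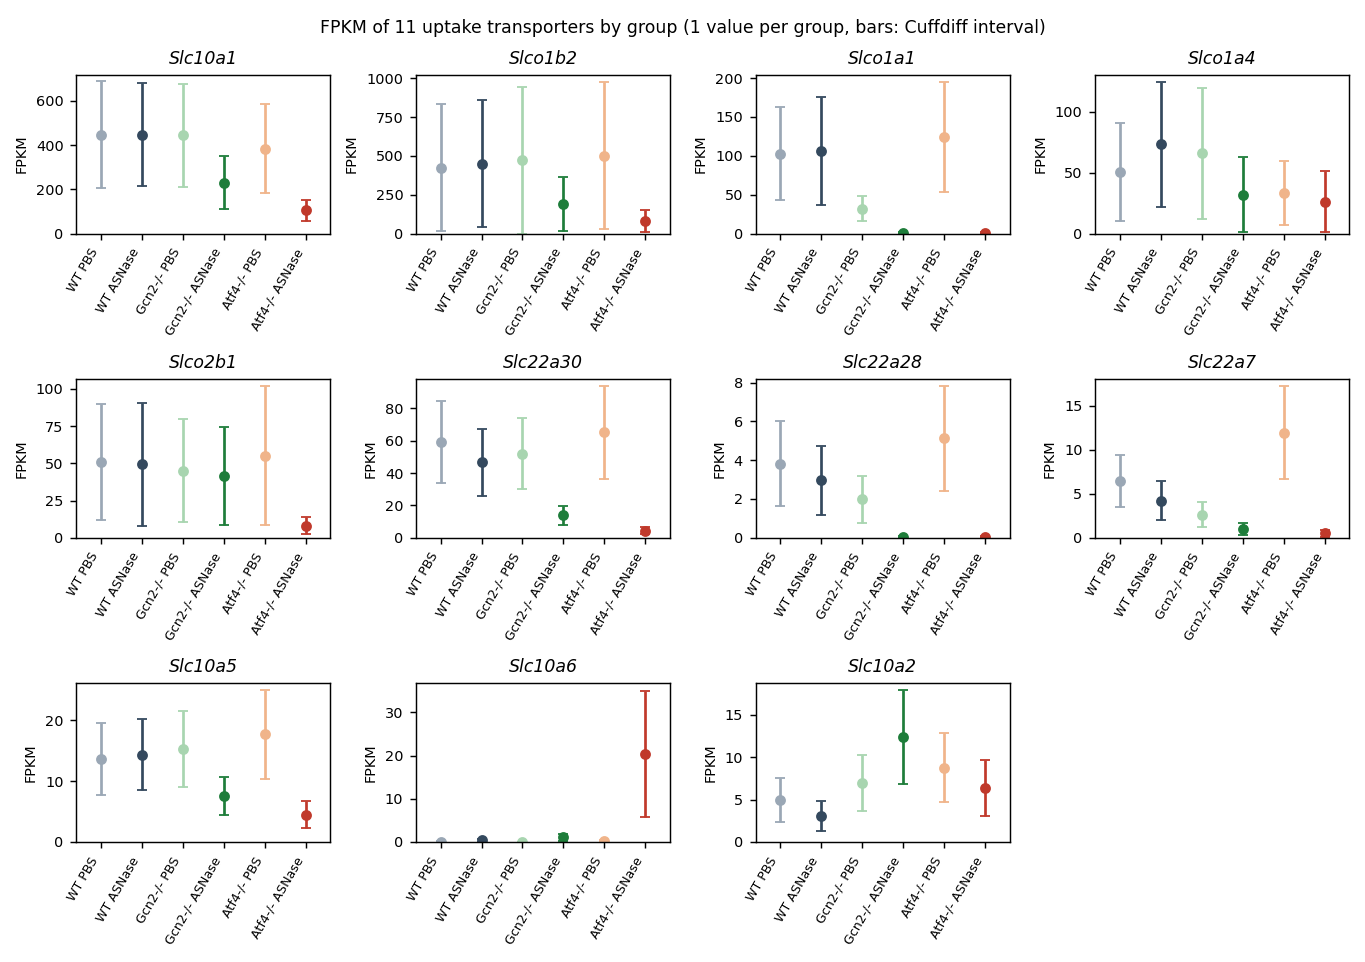
FPKM (vertical axes, linear from 0, a scale of its own for each gene) of 11 members in the 6 groups, with the authors' group value as a point and the Cuffdiff interval as a bar. In Slc10a1, Slc22a30, Slc10a5 and Slc22a7 the Atf4-/- ASNase interval lies below that of Atf4-/- PBS, Slco1a1 and Slc22a28 are near 0 in both knockouts after ASNase, and Slc10a6 stands at 20.5 FPKM in Atf4-/- ASNase livers alone. The bars of Slco1b2, Slco1a4 and Slco2b1 overlap within each strain.

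The carriers on chromosome 6 lie side by side: Slco1c1, Slco1b2, Slco1a4, Slco1a1, Slco1a6 and Slco1a5 span 141524368 to 142322981. Their summed FPKM was 581 and 633 for WT under PBS and ASNase, 574 and 227 for Gcn2-/- mice, and 666 and 112 for Atf4-/- mice. Most of each sum was Slco1b2, whose intervals all overlapped. Within this cluster Slco1a1 (ENSMUSG00000041698; 141907282 to 141946962, minus strand), an organic anion and steroid conjugate carrier that is higher in male than in female mouse liver, changed most. Its FPKM was 103 (43.3 to 162) for WT PBS and 106 (36.8 to 175) for WT ASNase mice, 32.1 (15.7 to 48.6) and 1.30 (0.507 to 2.1) for Gcn2-/- mice, and 124 (53.8 to 195) and 0.945 (0.361 to 1.53) for Atf4-/- mice. Both knockout ASNase intervals lay below those of the other 4 groups and overlapped each other. The log2 change after ASNase was -6.90 in Atf4-/- and -4.52 in Gcn2-/- livers, both called, and 0.05 in WT livers. Under PBS the Gcn2-/- value differed from WT by -1.67, with intervals that overlapped. It was called there only where a difference had to exceed the root of the summed squared distances to the upper bounds, a looser rule that called 1.24% of genes.

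The neighbours of Slco1a1 did not share the size of this change. Slco1a4, which carries organic anions and cardiac glycosides, had 50.5 and 73.2 FPKM for WT under PBS and ASNase, 65.6 and 31.8 for Gcn2-/- mice and 33.2 and 26.1 for Atf4-/- mice, with log2 changes of 0.53, -1.04 and -0.35. All of its intervals overlapped. Slco1a6 lay between 3.03 and 6.33 FPKM with overlapping intervals, and Slco1c1 and Slco1a5 stayed under 0.1 FPKM. Exact 100-base windows shared with transcripts of other genes made up 0.614% of Slco1a1, 0.64% of Slco1a4 and 1.59% of Slco1a6.

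Sex-biased genes moved with Slco1a1 in part. Each knockout had the same number of males under PBS and ASNase, while WT ASNase had 1 more male than WT PBS. Between strains, Gcn2-/- ASNase had 1 male against 2 in WT ASNase, and Atf4-/- PBS had 2 against 1 in WT PBS. Strain and number of males differ together in those comparisons. The Y-linked Ddx3y had 5.62 and 11.6 FPKM for WT under PBS and ASNase, 6.20 and 5.88 for Gcn2-/- mice, and 11.4 and 14.2 for Atf4-/- mice, with intervals that overlapped within each strain. Of 8 male-biased liver genes listed for this comparison, 0 were called after ASNase in WT livers, 3 of 5 eligible were lower in Gcn2-/- livers (Cyp4a12a, Cyp7b1 and Hsd3b5) and 6 of 8 in Atf4-/- livers, with median log2 changes of -0.09, -1.79 and -4.37. Over all eligible genes 0.881% were called after ASNase in WT livers, and 2.13% and 4.63% were called lower in Gcn2-/- and Atf4-/- livers. In Gcn2-/- livers Cyp4a12a went from 11.7 to 1.25 FPKM and Hsd3b5 from 13.1 to 0.18. In Atf4-/- livers Mup20 went from 1940 to 107 FPKM, Hsd3b5 from 105 to 0.167, Cyp4a12a from 42.0 to 0.106, Elovl3 from 32.7 to 0.41, Susd4 from 14.0 to 1.61 and Ugt2b38 from 4.62 to 0.101. Only Cyp7b1 in Gcn2-/- and Mup20 in Atf4-/- livers had more than 3 FPKM under both PBS and ASNase. The other male-biased genes called after ASNase met the limit through PBS only and could be called only as lower. Under PBS Elovl3 was called lower in Gcn2-/- than in WT livers, at 2.84 against 54.0 FPKM, where the median of the 8 was -1.63. Of 8 female-biased genes, 0, 1 and 1 were called lower after ASNase and 0 higher, with medians of -0.33, 0.35 and -1.67: Cyp2a4 from 756 to 97.7 FPKM in Gcn2-/- livers and Cyp2b13 from 58.0 to 1.66 in Atf4-/- livers. Between Atf4-/- and WT livers Cyp3a41a was called higher under PBS, at 20.8 against 1.09 FPKM, and under ASNase, at 11.9 against 0.669, where Cyp17a1, at 5.55 against 60.6, and Cyp2b13, at 1.66 against 20.3, were called lower. These calls of Cyp3a41a and Cyp2b13, and that of Elovl3 under PBS, rest on genes over 3 FPKM in only 1 of the groups compared. Some genes stand on 2 lists: Cyp7b1 is also on that of bile acid synthesis, Cux2 on that of regulators, and Hnf4a on those of regulators and hepatocyte markers. The part of these genes' control in the fall of Slco1a1 was not tested.

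Outside chromosome 6, Slco2b1 (chromosome 7 from 99657804 to 99711340), a carrier of steroid sulphates found in many tissues, had 51.0 (12.2 to 89.7) and 49.3 FPKM (7.85 to 90.8) for WT under PBS and ASNase. It had 45 (10.3 to 79.7) and 41.6 (8.53 to 74.7) for Gcn2-/- mice, and 55.2 (8.60 to 102) and 8.17 (2.28 to 14.1) for Atf4-/- mice. Atf4-/- ASNase was the low value, the other 5 were close together, and all intervals within a strain overlapped. The log2 change of -2.74 in Atf4-/- livers was therefore not called, although the looser interval rule, under which 9.13% of genes were called, called it. The antisense gene Gm15635 covers 7.91% of the exon bases of Slco2b1 and had 26 and 5.42 FPKM in Atf4-/- livers. The library kit named in the methods does not mark strand, so reads of an antisense pair cannot be told apart.

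Slco2a1, the prostaglandin carrier, which is found in endothelium, and Slco3a1 were called in no comparison. Slco2a1 lay between 13.8 and 22.0 FPKM in the 6 groups and differed after ASNase by -0.43 in WT, -0.34 in Gcn2-/- and -0.09 in Atf4-/- livers. Slco3a1 lay between 0.965 and 1.99 FPKM. A list of 6 endothelial markers summed to 107 and 91.2 FPKM in WT livers, 54.4 and 58.4 for Gcn2-/- mice, and 118 and 83.1 for Atf4-/- mice under PBS and ASNase.

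Among the Slc22a genes, the cation carrier Slc22a3 on chromosome 17 lay between 0.84 and 1.96 FPKM with overlapping intervals. Of its exon bases 9.31% overlap Plg, a liver gene on the opposite strand with 689 to 1118 FPKM, so the values of Slc22a3 are uncertain.

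Slc22a7 (ENSMUSG00000067144; chromosome 17 from 46432183 to 46438457), an organic anion carrier of liver, had 6.42 (3.48 to 9.36) and 4.23 FPKM (1.99 to 6.47) for WT under PBS and ASNase. It had 2.62 (1.17 to 4.06) and 0.955 (0.277 to 1.63) for Gcn2-/- mice, and 12.0 (6.70 to 17.2) and 0.503 (0.104 to 0.903) for Atf4-/- mice. Atf4-/- PBS was highest and Atf4-/- ASNase lowest, so it fell by 4.32 on the log2 scale in that strain. In Gcn2-/- livers neither value exceeded 3 FPKM, so the change of -1.36 was not eligible. Against WT ASNase livers the gene was called lower in Gcn2-/- (-2.04) and in Atf4-/- livers (-2.84). The first of these calls was lost with a pseudocount of 1, under which 3.95% of genes were called.

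The chromosome 19 cluster, which holds rodent-specific organic anion carriers, contains 8 members from 7673061 to 8628299: Slc22a19, Slc22a26 to Slc22a30, Slc22a8 and Slc22a6. Its summed FPKM was 116 and 72.7 for WT under PBS and ASNase, 123 and 50.1 for Gcn2-/- mice, and 124 and 20.5 for Atf4-/- mice. Its highest PBS value in each strain was that of Slc22a30 (ENSMUSG00000052562; 8335371 to 8405111, minus strand), nearly equal to that of Slc22a26 in Gcn2-/- livers. It had 59.2 (33.9 to 84.4) and 46.6 FPKM (26.1 to 67.1) in WT livers, 52.0 (30.2 to 73.9) and 13.9 (7.91 to 19.8) for Gcn2-/- mice, and 65.2 (36.6 to 93.8) and 4.48 (2.18 to 6.79) for Atf4-/- mice. The intervals of both knockout ASNase groups lay below all others and did not overlap each other. The log2 change was -1.90 in Gcn2-/- and -3.83 in Atf4-/- livers, both called, and -0.34 in WT livers.

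Its neighbour Slc22a28 (8062209 to 8131982), whose upstream window is nearly the same, had lower values. They were 3.83 (1.65 to 6.01) and 2.96 FPKM (1.20 to 4.73) in WT livers, 1.98 (0.757 to 3.19) and 0.0204 (0 to 0.0757) for Gcn2-/- mice, and 5.12 (2.43 to 7.81) and 0.0259 (0 to 0.0792) for Atf4-/- mice. After ASNase both knockouts were near 0, and their intervals lay below those of the other 4 groups. The gene fell by 5.37 on the log2 scale in Atf4-/- livers, and in Gcn2-/- livers the change was -4.11 with separate intervals but with neither value over 3 FPKM. Of the 100-base windows of Slc22a28, 37.0% occur unchanged in transcripts of other genes, nearly all of them Slc22a30, and 21.1% of those of Slc22a30 do. Reads of that length from the shared part could be split between the pair, so their separate values are uncertain.

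The other 3 expressed genes of the cluster were called in no comparison. Slc22a26 had 36.5 and 16.9 FPKM for WT under PBS and ASNase, 51.8 and 29.8 for Gcn2-/- mice, and 47.1 (10.4 to 83.7) and 13.1 (7.17 to 18.9) for Atf4-/- mice, with a lower ASNase value in each strain. Slc22a27 had 12.8 (6.30 to 19.2) and 3.95 (1.53 to 6.38) in WT livers, 12.3 and 4.97 for Gcn2-/- mice, and 5.77 and 2.52 for Atf4-/- mice. Its change of -1.67 was the largest of a member in WT livers after ASNase, and its intervals there touched, with an upper bound of 6.38 against a lower bound of 6.30. The looser interval rule called it, and 1.05% of genes. Slc22a29 lay between 0.402 and 5.04 FPKM, and the difference of -2.41 between Atf4-/- and WT livers under PBS came with overlapping intervals. Slc22a27 and Slc22a29 share 7.31% and 7.51% of their 100-base windows with other genes, mainly with each other.

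The carnitine and ergothioneine carriers and the orphan genes Slc22a18 and Slc22a23 were called in no comparison. Slc22a5, which takes up carnitine, had 7.45 and 10.1 FPKM for WT under PBS and ASNase, 11.1 and 8.49 for Gcn2-/- mice, and 9.21 and 4.83 for Atf4-/- mice. Slc22a4, the ergothioneine carrier, lay between 1.06 and 2.04 FPKM, and Slc22a21, a carnitine carrier between both on chromosome 11, had 0.243 to 0.31 FPKM in 5 groups and 1.14 (0.014 to 2.27) in Atf4-/- ASNase livers. Of the windows of Slc22a5 12.9% and of Slc22a21 10.6% are shared with other genes, mainly with each other. The imprinted gene Slc22a18 had 60.5 and 57.1 FPKM in WT livers, 64.8 and 39.3 for Gcn2-/- mice, and 54.4 (29.4 to 79.3) and 23.2 (13.4 to 33) for Atf4-/- mice, a change of -1.23 there with overlapping intervals. Against WT ASNase livers its Atf4-/- interval was separate, and the difference of -1.30 was short of the limit of 1.5. It was called there with a limit of 1, beside 8.95% of all eligible genes. Slc22a23 lay between 12.5 and 20.7 FPKM.

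The responses to ASNase were also compared between strains, as the difference of the log2 changes beside its error, combined over the 4 values as a root of squares. A member was counted when all 4 values were above 0 with 1 over 3 FPKM and the difference exceeded both 1.5 and that error. Against WT, 3 of 20 members were counted in Gcn2-/- livers (Slco1a1, Slc22a30 and Slc22a28), beside 5.42% of all eligible genes (1 with a pseudocount of 1, beside 4.79%), and 9 of 21 in Atf4-/- livers, beside 7.92%. These 2 counts share the WT groups. The 9 were Slc10a1, Slc10a5, Slc10a6, Slco1b2, Slco2b1, Slco1a1, Slc22a7, Slc22a28 and Slc22a30. Between the knockouts 5 of 22 were counted, beside 4.58%: Slc10a6, with a change 2.46 larger in Atf4-/- livers (error 1.82), and Slco2b1 (-2.63, error 2.25), Slco1a1 (-2.37, error 1.59), Slc22a30 (-1.93, error 1.29) and Slc22a7 (-2.96, error 1.66), which were more negative there. For Slco1b2 the difference from WT, -2.71, exceeded its error of 2.63 only narrowly. Some members met the limit of 3 FPKM only through the group where they were high. These were Slc22a28 through WT PBS in the first count and Slc10a6 through Atf4-/- ASNase in the other counts. Between the knockouts Slc22a7 met it through Atf4-/- PBS only.

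The changes in the knockouts, which were measured in separate groups of mice, had the same sign for 24 of the 26 members, and 19 of these were lower in both. Across the 26 members Pearson's r was 0.89 and Spearman's rho 0.76, a description across genes that share the libraries of each group. In 19 of the 26 the change was more negative in Atf4-/- than in Gcn2-/- livers. The shares over all genes were not computed for these counts, so they are not read as particular to the carriers. Slc10a2 (0.82 and -0.46) and Slco3a1 (0.97 and -0.16) were the members of opposite sign, and neither was called.

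Export carriers and the enzymes that make bile acids were listed for comparison. Of 13 export genes 0 of 9 eligible were called after ASNase in WT livers, 0 of 10 in Gcn2-/- and 1 of 9 in Atf4-/- livers, beside 0.881%, 3.69% and 7.37% of all eligible genes, with median log2 changes of -0.02, -0.84 and -0.80 over the 12 genes above 1 FPKM. The called gene was Slc47a1, which exports organic cations and fell from 40.4 (16.8 to 64.1) to 8.75 FPKM (2.77 to 14.7) in Atf4-/- livers, a change of -2.20. Abcb11, the bile salt export pump, had 237 and 93.1 FPKM for Gcn2-/- mice and 195 (15.4 to 374) and 56.1 (7.09 to 105) in Atf4-/- livers, with overlapping intervals. Ostb, a subunit of the basolateral bile salt exporter, lay between 0.356 and 4.62 FPKM, and its partner Osta was under 0.1. Of 13 genes of bile acid synthesis and conjugation, all eligible, 0, 2 and 3 were called after ASNase in the 3 strains, all lower, with medians of -0.20, -1.07 and -1.82. In the knockouts 2.13% and 4.63% of all eligible genes were called lower. Cyp8b1, which makes the precursor of cholic acid, had 201 and 190 FPKM in WT livers, 58.2 and 8.22 for Gcn2-/- mice and 56.3 and 1.81 for Atf4-/- mice, and Cyp7a1, the rate-limiting enzyme, had intervals that reach 0 in every group. In Atf4-/- livers Cyp8b1 had more than 3 FPKM under PBS only and could be called only as lower after ASNase. Cyp8b1 was also called lower under PBS in both knockouts against WT. The other called genes were Cyp7b1, from 16.2 to 5.06 FPKM in Gcn2-/- livers, and Akr1d1, from 76.2 to 13.9, and Amacr, from 63.6 to 17.5, in Atf4-/- livers.

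**Figure D4:**
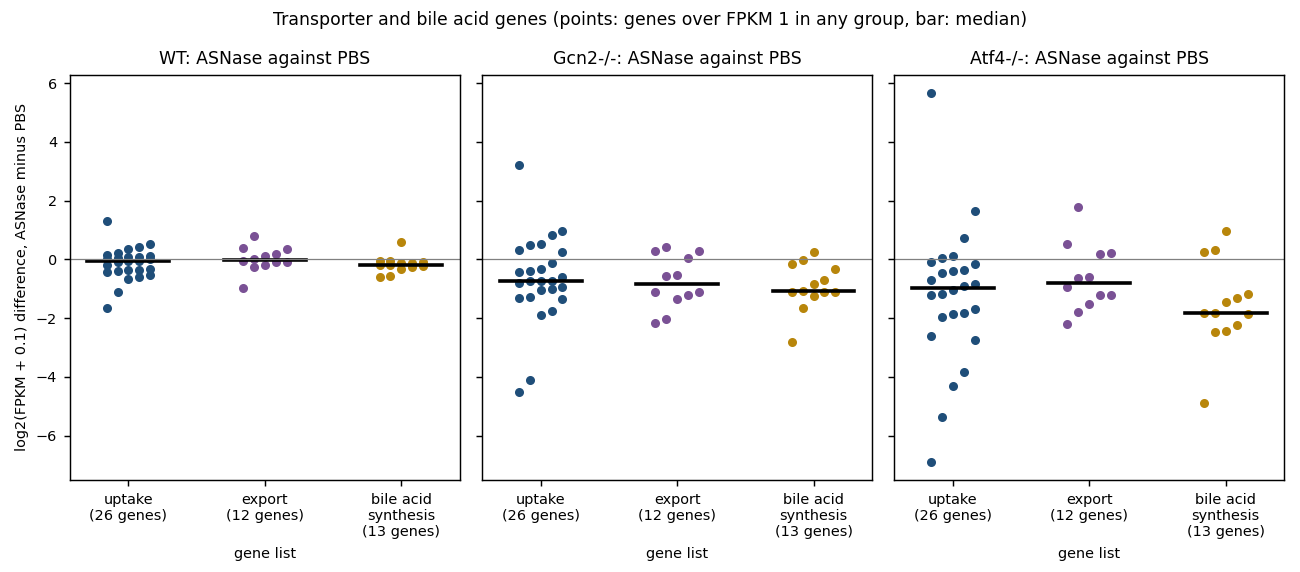
Difference in log2(FPKM + 0.1) after ASNase (vertical axis, ASNase minus PBS) in WT, Gcn2-/- and Atf4-/- livers for the 26 uptake genes, 12 export genes and 13 bile acid synthesis genes above 1 FPKM in any group, with 1 point per gene and a bar at the median. The medians lie near 0 in WT livers and between -0.73 and -1.82 in the knockouts, and the uptake genes spread from -6.90 to 5.66 in Atf4-/- livers.

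Of 20 regulators known to act on such genes, 0 of 19 eligible were called after ASNase in WT livers, 1 of 20 in Gcn2-/- and 2 of 20 in Atf4-/- livers, all lower, with medians of 0.11, 0.01 and -0.55. Over all eligible genes 0.881% were called in WT livers, and 2.13% and 4.63% were called lower in the knockouts, so 1 or 2 of 20 is no result about the regulators. Nr0b2, the repressor induced by the bile acid receptor, fell from 32.3 (17.5 to 47.2) to 11.1 FPKM (5.51 to 16.6) in Gcn2-/- livers and from 24.3 (13.2 to 35.5) to 1.03 (0.166 to 1.90) in Atf4-/- livers. In Atf4-/- livers Nr0b2 had more than 3 FPKM under PBS only and could be called only as lower. Ghr, the growth hormone receptor, fell from 207 (72.7 to 341) to 33.7 FPKM (12.5 to 54.9) in Atf4-/- livers, and its change of -1.31 in Gcn2-/- livers was not called. Hnf4a had 145 to 213 FPKM in the 6 groups and was called in no comparison. Their part in the levels of the carriers was not tested.

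Hepatocyte markers moved with the carriers in part. Of 8 hepatocyte markers Alb had no estimate in the table, and the summed FPKM of the other 7 was 11645 and 10580 for WT under PBS and ASNase, 10826 and 6093 for Gcn2-/- mice, and 10918 and 3731 for Atf4-/- mice. That sum is mostly Ttr and Cyp2e1. Gene by gene, these 7 had median log2 changes after ASNase of -0.03 for WT mice, -0.20 for Gcn2-/- mice and -1.24 for Atf4-/- mice. Asgr1, a receptor of hepatocytes, had 357 to 451 FPKM in all groups and differed by -0.15 in Gcn2-/- and -0.04 in Atf4-/- livers after ASNase. Of these 7 markers only G6pc was called after ASNase in any strain, lower in Atf4-/- livers, from 154 to 40.8 FPKM. Markers of skeletal muscle, 8 genes, summed to 824 and 1156 FPKM in WT, 5.79 and 8.85 in Gcn2-/-, and 63.2 and 125 in Atf4-/- livers, and those of pancreatic acinar cells, 6 genes, to between 5.47 and 325 FPKM, highest in Atf4-/- ASNase livers. Markers of Kupffer cells (118 to 251 FPKM), stellate cells (83.9 to 136), neutrophils (1.36 to 15.2), erythroid cells (7.01 to 39.8), B and T cells (0.753 to 5.83) and lung epithelium (0.723 to 132, highest in WT PBS) were lower in sum than those of hepatocytes in each group. Their part in the values of the carriers was not tested.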

How the data were processed

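RNA-Seq was performed on 18 livers. For these data the authors sequenced poly-A libraries as 100-base single-end reads and ran the Tuxedo tools against mm10: TopHat with Bowtie for mapping, then Cufflinks, Cuffmerge and Cuffdiff. The deposited table holds FPKM values, 1 per group of 3 libraries, with bounds in FPKM and a status for each. Each column of values names its group, and 0 columns were left unmapped. The limma model planned for values per library could not be fitted, so the calling rule of the report was used, with the FPKM and fold limits of the supplementary methods and separate intervals in place of their q value. The depth per library is unknown from the table, so precision rests on the bounds: among genes over 3 FPKM the median distance from a value to its upper bound was 51.3% to 54.2% of the value in the 6 groups.

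For the error of a log2 difference, the distance from each value to its upper bound was divided by the value plus 0.1. This gives a distance on the natural-log scale, which was converted to log2. The error is the root of the summed squares of these distances. The rule was computed over all genes, and its code was tested on simulated data. Members named singly are those over 1 FPKM in any group, except 1 that is not reported here but stands in the counts, sums and medians, and list genes are named with values where called or where a result turns on them. The members, lists, motifs and comparisons were chosen with earlier results of these data known. List names were matched by Ensembl identifier, coordinates are from GENCODE release 21 for mouse (GRCm38), matched for 48 of 49 members, and upstream sequences are from RefSeq (GRCm38.p6). Shared windows are exact 100-base stretches of GENCODE transcripts found in another gene. Analyses used Python 3.11.15 with pandas 2.3.3 and numpy 2.4.6.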

Additional observations from a re-analysis of the deposited data

How the results depend on the processing

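No paired analysis was possible because the table holds 1 value per group and its columns carry no replicate number, and for the same reason no replicate could be left out. Of 56 recomputed counts of called members 52 stayed within 1.5 times the reported count. The 52 include many counts that stayed at a reported 0, for which no ratio exists. The median difference of the members moved most in Atf4-/- against WT ASNase livers, from -0.96 to -1.31 with members over 3 FPKM only, and it changed sign only in Gcn2-/- against WT livers under PBS, from -0.05 to 0.03 with the same limit. The combined interval asks that a difference exceed the root of the summed squared distances to the upper bounds. With it, 1 member was called in Gcn2-/- against WT livers under PBS (Slco1a1, lower) and 1 in WT livers after ASNase (Slc22a27, lower). The reported counts there are 0. In Gcn2-/- livers after ASNase 4 members were called with a limit of 1 FPKM and 4 with no limit, against 2 reported, since Slc10a6 and Slc22a28 then became eligible. With a pseudocount of 1 only 1 member, against 3, responded differently in Gcn2-/- than in WT livers. Slco2b1 in Atf4-/- livers was called after ASNase only with the combined interval. Slc22a7 in Gcn2-/- and Slc10a5 in Atf4-/- livers, both against WT ASNase, lost the call with a pseudocount of 1. Of 80 recomputed differences of called members 69 moved little, by less than the error of the difference, and none of the 80 changed sign. The other 11 moved more, but not all of them by more than that error, since the cut between the 69 and the 11 was tighter than it. With a pseudocount of 1, the shifts of Slco1a1 in all its calls were within the error. So were those of Slc22a7 against WT ASNase in both knockouts. The width of the intervals allows only large differences to be called.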
